A study of Mus musculus with 15 samples.

Results

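The comparison described here is between hearts of mice given an AAV9 vector carrying VEGF-B before doxorubicin and hearts of mice given doxorubicin alone. It takes 10 of the 15 arrays of the series, chosen by their labels: 5 arrays of VEGF-B plus doxorubicin and 5 of doxorubicin, each read over every probe. All mice were C57Bl/6J males of 10 weeks, and the tissue was myocardium, taken 20 h after the injection of doxorubicin or, for 5 further samples, of phosphate-buffered saline (PBS). The pretreated mice had received the vector 7 days before doxorubicin. No group with an empty vector is among the samples, so the vector and the VEGF-B it carries cannot be told apart, nor was VEGF-B given without doxorubicin. The promoter of the transgene, the doses of vector and drug and the way animals were assigned to arrays are not given in the sources used here. The labels number the samples of a group but do not say that each came from its own mouse, so p-values measure the spread between these samples.

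Doxorubicin is an anthracycline that traps topoisomerase II on DNA, breaks the strands and is known for damage to the heart. VEGF-B is a growth factor that heart muscle makes in quantity. It binds VEGF receptor 1 (the product of Flt1) and the co-receptor neuropilin 1 (Nrp1) but not VEGF receptor 2 (Kdr), and by occupying receptor 1 it can leave more VEGF-A for receptor 2. It is known in rodent hearts for enlarging the coronary vessels without making them leaky. AAV9 is an adeno-associated virus serotype that enters heart muscle cells of mice well.

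The values are the authors' normalized log2 probe intensities from Illumina BeadChips, so a step of 1 is a 2-fold change of intensity. They ran from 6.52 to 14.93, and unexpressed probes sat in a peak at 6.8. A probe was tested where at least 5 of the 15 arrays read above 6.914, which left 24861 probes and, taking the brightest tested probe of each gene, 12750 genes. Differences below are pretreated minus doxorubicin alone, ± SE, with 5 arrays in each group, from limma fitted over all tested probes; "passed" means a Benjamini-Hochberg adjusted p under 0.05. Because dim probes read close to the background, their folds are understated. The filter let in 788 of the 12750 genes only with the help of the pretreated arrays, and 48 of these were called higher. For the mitosis, venous and interferon lists, where such genes were called, counts are also given without them, a split chosen after the values were seen. The tissue was whole myocardium, so more cells of a type and more RNA per cell cannot be told apart.

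Heart muscle genes were among the brightest on every array. Myh6, the main myosin heavy chain of the adult mouse heart, read 14.02 to 14.71 on the 10 arrays. The first principal component, with 28.7% of the variance, placed the pretreated arrays between 10.3 and 24.5 and the other 10 arrays between -15.6 and -2.42. Array 5 of each drug group and PBS arrays 4 and 5 stood apart on the second component (-19.4 to -15.0). A pair of arrays also went against their labels in part. Cdkn1a, the p53 target that encodes the cell cycle inhibitor p21, read 10.48 to 10.99 on the other doxorubicin arrays but 9.87 on doxorubicin array 2, and 10.05 to 10.89 on the other pretreated arrays but 8.60 on pretreated array 3, which lies within the PBS range of 7.97 to 8.97. Without this pair of arrays the calls of 14 of the 204 named genes ended (adjusted p from 0.0501 to 0.149): those of Ccl21a, Igf1, Ddb2, Cxcl10, Pdk4, Pygm, Ndufs3, Hsph1, Cxcl14, Cxcl12, Mmp3, Meox2, Slit3 and Tnni2.

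Pretreatment went with a large change in the heart's RNA. Of 24861 probes, 2383 passed (9.59%), 1595 of them higher (6.42%) and 788 lower (3.17%) in the pretreated hearts. Over genes, 1075 were higher (8.43% of 12750) and 504 lower (3.95%). The counts of gene lists below are to be read beside these shares. Whatever their call, 1246 of the 12750 genes did not overlap between the groups. For genes named among the largest rises and falls, no overlap was a condition of the choice. The rises were larger than the falls: 69 genes rose at least 2-fold, while Inmt, which encodes an indolethylamine N-methyltransferase, was the 1 gene that fell that far. Inmt read 11.02, 10.01, 10.99, 10.93 and 10.72 on the doxorubicin arrays and 9.14, 10.38, 9.02, 9.71 and 9.89 on the pretreated arrays, which overlap through doxorubicin array 2. Its difference was -1.11 ± 0.24 (adjusted p = 0.00498). The median change was 0.43 among genes that rose and -0.31 among genes that fell, against -0.02 over all genes tested. Leaving out doxorubicin array 2 and pretreated array 3 together left 2121 probes past the threshold.

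**Figure D1:**
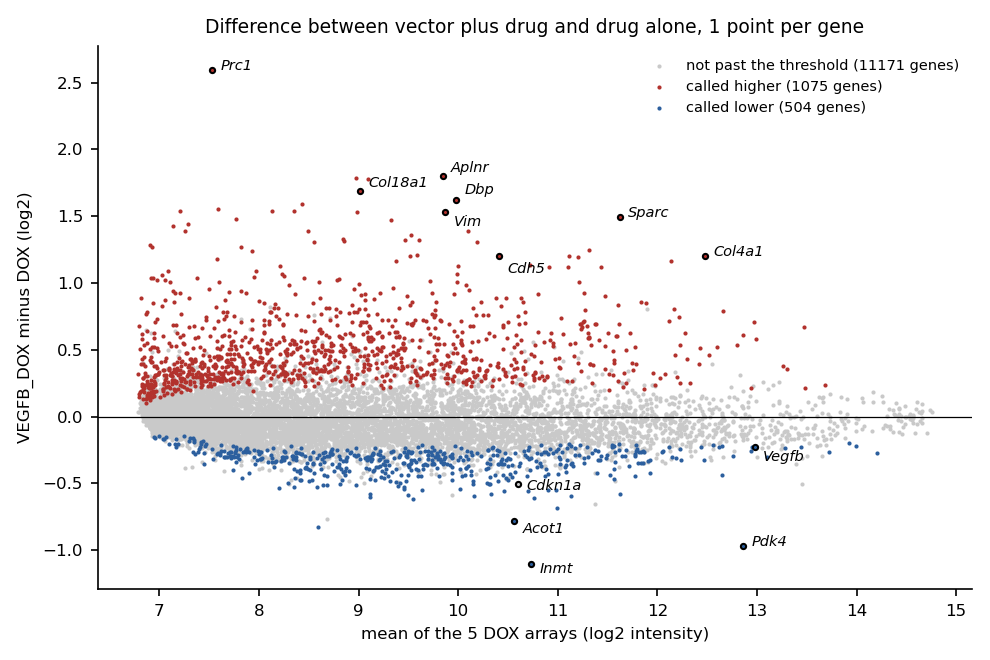
Each point is 1 of the 12750 genes tested, with its mean log2 intensity over the 5 arrays of doxorubicin alone on the x axis and its log2 difference (pretreated minus doxorubicin alone) on the y axis; coloured points passed the test. Genes that passed reach further above 0 than below it, with 69 rising at least 2-fold against 1 falling.

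Vegfb itself is the gene the vector carries. Its probe read 13.01, 12.90, 12.95, 12.94 and 13.12 on the doxorubicin arrays and 12.82, 12.66, 12.78, 12.73 and 12.81 on the pretreated arrays. Every pretreated array was below every doxorubicin array, so the probe was lower, not higher, after the vector. The difference was -0.22 ± 0.06 (adjusted p = 0.0199; exact two-sided permutation p = 0.00794, the smallest that 252 arrangements can give). Where the probe lies relative to the sequence in the vector is not given in the sources used here, so it measures the mouse gene with or without the transgene. Its call ended without doxorubicin array 5, without pretreated array 2 and without the 4 arrays that stand apart on the second component.

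Among the receptors, both neuropilins rose. Nrp1 read 11.07, 11.95, 11.02, 11.30 and 11.22 with doxorubicin alone and 11.82, 11.97, 12.02, 11.99 and 11.73 after pretreatment (0.59 ± 0.13, adjusted p = 0.00586), with doxorubicin array 2 as high as the pretreated arrays. Nrp2 was higher by 0.41 ± 0.12 (adjusted p = 0.0428), but its call ended in 13 of 21 alternative settings and another of its probes differed by -0.04. Flt1 averaged 11.96 and 12.20 (0.24 ± 0.08, adjusted p = 0.0809) and Kdr, whose probe sat near the background, 6.91 and 6.99 (0.08 ± 0.04, adjusted p = 0.245). Neither receptor passed. Vegfa, the ligand of both receptors, did not pass either (-0.29 ± 0.14, adjusted p = 0.258).

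Genes of the endothelial surface, the junctions and adhesion molecules of the cells that line vessels, rose in 16 of 23 cases tested and fell in none. All 23 differences were positive, with a median of 0.59. Averaged over the list and set to the PBS mean, the doxorubicin arrays lay between -0.05 and 0.05 and the pretreated arrays between 0.55 and 0.61. The pretreated hearts were close to each other on this list, pretreated array 3 included (0.56). Cdh5, the vascular cadherin that holds endothelial junctions together, read 10.43, 10.33, 10.65, 10.12 and 10.51 against 11.35, 11.63, 11.53, 11.86 and 11.67, a rise of 1.20 ± 0.11 (adjusted p = 1.53e-06). Cd93, a surface glycoprotein of endothelial cells, rose by 1.31 ± 0.14, the most of the list. Rasip1, which is needed for vessel lumens to form, rose by 0.81 ± 0.09. Pecam1 rose by 0.61 ± 0.11, from a mean of 10.58 to 11.19. Cldn5, the tight junction claudin of endothelium, averaged 10.16 and 10.43 and did not pass (0.27 ± 0.13, adjusted p = 0.251).

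**Figure D2:**
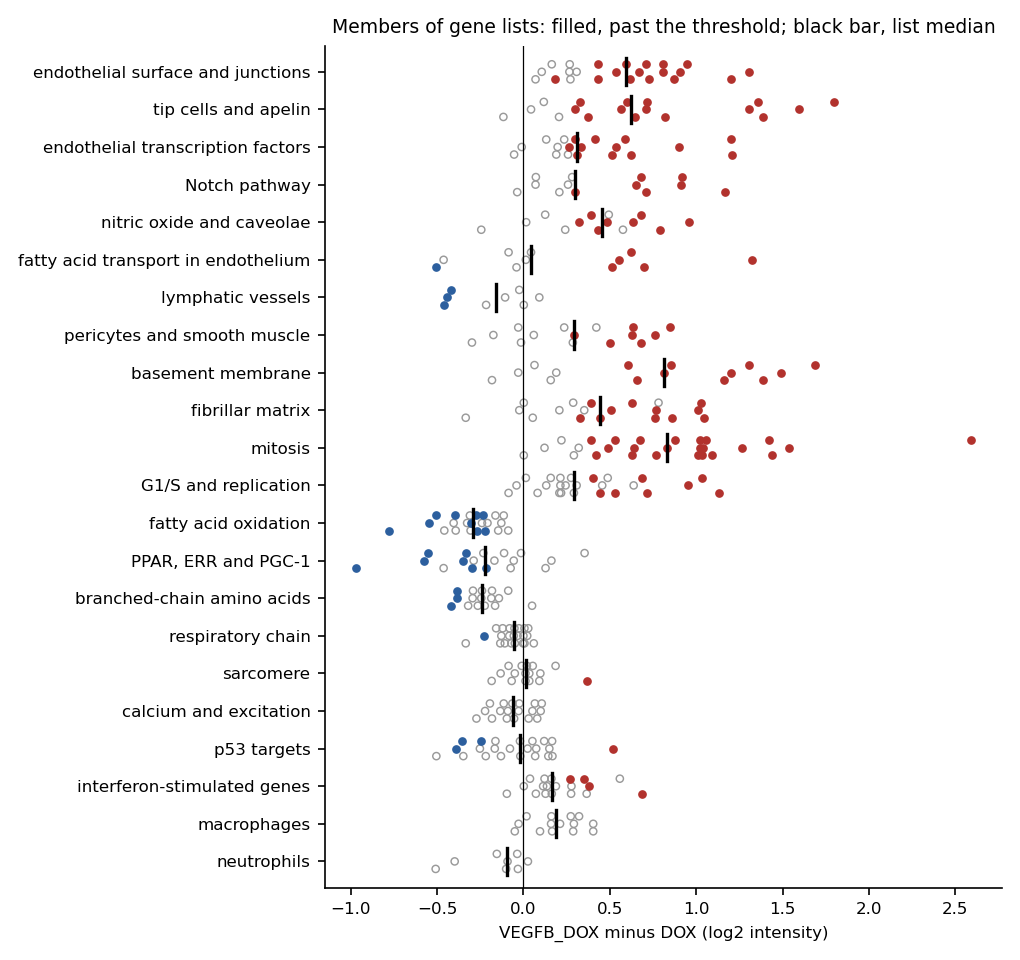
Each point is 1 tested gene of a list, with its log2 difference (pretreated minus doxorubicin alone) on the x axis and the lists as rows; filled points passed the test and the bar of each row marks the list's median. All 23 endothelial surface genes tested lie above 0 and all 22 fatty acid oxidation genes tested lie below it; the mitosis row holds 27 tested genes, 8 of which passed the filter only through the pretreated arrays.

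Of 18 genes of the apelin pathway and of the tip cells that lead vessel sprouts, 14 rose and none fell (median 0.62). Aplnr, the apelin receptor, read 9.50, 10.69, 8.85, 9.95 and 10.23 with doxorubicin alone and 11.57, 11.56, 11.67, 11.67 and 11.75 after pretreatment. The pretreated arrays lay close together while the doxorubicin arrays spread widely (SD 0.08 and 0.70), and the groups did not overlap (1.80 ± 0.22, a 3.48-fold rise, adjusted p = 2.42e-05). Fscn1, which bundles actin in filopodia, rose 3.02-fold (1.59 ± 0.24) and Lxn, a carboxypeptidase inhibitor, 2.61-fold (1.39 ± 0.12). Mcam, an adhesion molecule of endothelial and mural cells, rose by 1.36 ± 0.20. Pdgfb, the ligand by which endothelium recruits pericytes, rose by 0.72 ± 0.07, and Angpt2, the context-dependent ligand of the Tie2 receptor, by 0.33 ± 0.07.

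In the Notch pathway, by which neighbouring endothelial cells take tip and stalk fates, 7 of 13 genes rose and none fell (median 0.30). Both endothelial receptors rose, Notch4 from 10.80 to 11.72 (0.92 ± 0.08) and Notch1 from 9.03 to 9.74 (0.71 ± 0.13). The ligand Dll4 rose by 0.30 ± 0.07 on its brighter probe, while the other probe differed by 0.04. Among targets, Hey1 read 9.42, 9.58, 9.43, 8.99 and 9.46 against 10.64, 10.66, 10.29, 10.60 and 10.51 (1.16 ± 0.11, adjusted p = 1.52e-06), with no overlap. Nrarp, a target that feeds back to limit Notch signalling, rose by 0.91 ± 0.12.

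Transcription factors of endothelium followed the same direction, with 12 of 19 higher and none lower (median 0.31). Sox7, of the SoxF group that specifies vessels, read 9.61, 9.63, 9.46, 9.58 and 9.67 against 10.63, 10.98, 11.11, 10.77 and 10.50 (1.21 ± 0.10, adjusted p = 7.27e-07). Its partner in that group, Sox18, rose by 0.90 ± 0.10. Ets1, a founding ETS factor, read 10.85, 11.46, 10.79, 11.08 and 11.39 against 12.15, 12.42, 12.19, 12.39 and 12.42 (1.20 ± 0.12, adjusted p = 2.06e-06). Weaker probes of Sox7 and Ets1 differed by 0.07 and 0.05, so both rises rest on the brightest probe. Ets2 rose by 0.53 ± 0.07, Hhex by 0.41 ± 0.06 and Fli1 by 0.26 ± 0.06. Erg, the ETS factor usually used to mark endothelial nuclei, sat near the background in both groups (6.99 and 6.98) and did not pass (adjusted p = 0.942).

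Markers of particular vessel types were read next to these. Of 9 arterial genes 2 rose (22.2%, against 8.43% of all genes). They were the connexin Gja4 (0.49 ± 0.08) and Cxcl12 (0.29 ± 0.08), the second losing its call in 6 of 21 alternative settings. Gja5, the other arterial connexin, averaged 8.43 and 8.48 (adjusted p = 0.808). Of the 6 venous genes that passed the filter without the pretreated arrays, Ephb4, the receptor that marks veins, was the 1 that rose (0.60 ± 0.08). Sele, the E-selectin of activated endothelium, entered the test only through the pretreated arrays (6.914 was exceeded on all 5 of them and on no doxorubicin array), so its difference of 0.32 ± 0.06 is a description.

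Of 8 lymphatic genes tested, 3 fell, none rose and 5 did not pass (median -0.16). Prox1, the transcription factor that sets lymphatic identity and is also made by heart muscle, read 9.94, 9.73, 9.61, 9.89 and 9.88 against 9.30, 9.44, 9.15, 9.33 and 9.61 (-0.44 ± 0.09, adjusted p = 0.00484), the groups touching at 9.61. Its other probe differed by -0.19 and did not pass. The secreted glycoprotein Reln fell by 0.46 ± 0.11 on its brightest probe, with 0.09 on the other. Ccl21a, the lymphatic chemokine that draws dendritic cells, fell by 0.42 ± 0.12 and lost its call in 8 of 21 settings, with -0.28 (adjusted p = 0.149) without doxorubicin array 2 and pretreated array 3. The lymphatic markers Lyve1 (8.79 and 8.69) and Pdpn (8.83 and 8.92) did not pass. Of 6 endocardial genes, Cytl1 alone passed, falling by 0.26 ± 0.07 (16.7% fell, against 3.95% of all genes).

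Genes of nitric oxide signalling and of caveolae, the membrane pits rich in endothelial cells, rose in 8 of 14 cases and fell in none (median 0.46). Nos3, the endothelial nitric oxide synthase, read 9.41, 9.61, 9.11, 9.29 and 9.30 against 10.11, 10.50, 10.43, 10.18 and 10.30 (0.96 ± 0.10, adjusted p = 3.8e-06). Caveolin 1 (Cav1), which coats caveolae and holds Nos3 inactive, rose by 0.79 ± 0.12. Cavin2, a coat protein of the same pits, rose by 0.39 ± 0.07. Cavin1 averaged 10.66 and 11.16 and did not pass (0.49 ± 0.17, adjusted p = 0.0712), though it did in 5 of 21 alternative settings; pretreated array 5, at 10.54, lay with the doxorubicin arrays. Nostrin, which carries Nos3 away from the membrane, belongs to no list but was among the genes with the largest rises (1.31 ± 0.15). Gucy1a1, a subunit of the nitric oxide receptor in smooth muscle and pericytes, rose by 0.43 ± 0.08, and the endothelin receptor Ednrb by 0.68 ± 0.10.

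Of 17 axon guidance genes that also steer vessels, 8 rose and 1 fell (median 0.22). Plxnd1, the endothelial semaphorin receptor, read 9.12, 10.06, 9.04, 9.54 and 9.59 against 10.53, 10.77, 11.09, 10.81 and 10.77 (1.32 ± 0.15, adjusted p = 9.41e-06). The semaphorins Sema7a (1.01 ± 0.10) and Sema3f (0.78 ± 0.08), the second a ligand of neuropilin 2, rose without overlap between groups. Sema6d rose by 0.69 ± 0.09 on 1 of its 2 probes. The secreted guidance cue Slit3 was the member that fell (-0.23 ± 0.06 on its brightest probe, adjusted p = 0.0197). Of 13 integrins 1 rose (7.69%, near the 8.43% of all genes), the collagen receptor subunit Itga1 (0.39 ± 0.08).

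Of 11 endothelial genes of fatty acid handling tested, 5 rose, 1 fell and 5 did not pass (median 0.04). Rbp7, a retinol-binding protein of heart capillaries, read 9.50, 9.93, 9.55, 9.49 and 9.58 against 10.92, 10.96, 11.07, 10.87 and 10.85 (1.32 ± 0.09, adjusted p = 7.7e-08). Gpihbp1, which anchors lipoprotein lipase in the capillary lumen, rose by 0.70 ± 0.09, and Fabp5, a fatty acid binding protein of endothelium, by 0.55 ± 0.12. Tcf15 and Meox2, paired transcription factors that drive fatty acid uptake genes in heart endothelium of mice, rose by 0.62 ± 0.13 and 0.51 ± 0.14, the second losing its call in 6 of 21 settings. The fatty acid transporter Slc27a1 fell by 0.51 ± 0.12 (adjusted p = 0.0107), without overlap. Slc27a3 and Slc27a4, the transporters that VEGF-B has been reported to induce in endothelium, averaged 7.27 and 7.23, and 6.93 and 6.97, close to the background, and did not pass (adjusted p = 0.806 and 0.712). Cd36, the main fatty acid translocase, was as dim on its probe (7.17 and 7.08) and did not pass.

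**Figure D3:**
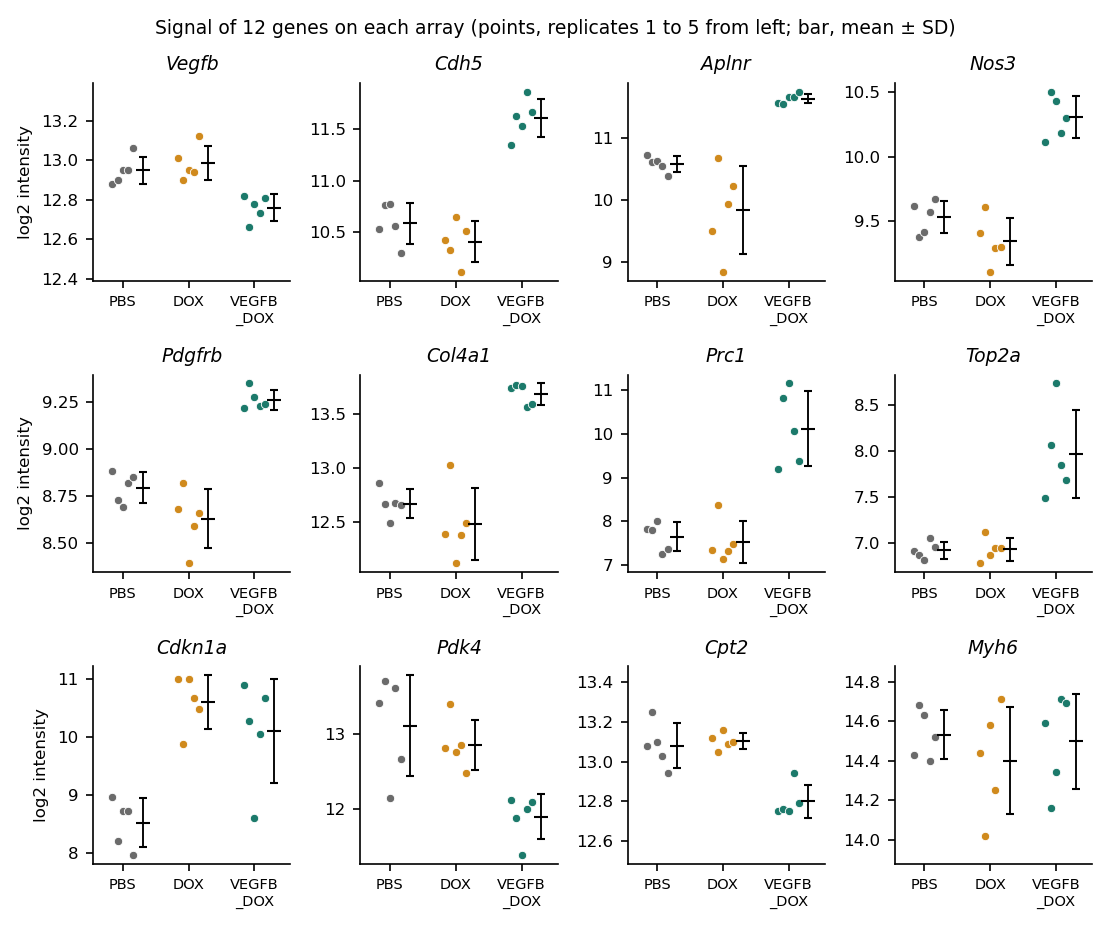
Each panel shows 1 gene, with log2 intensity on the y axis, 1 point for each array in the PBS, doxorubicin and pretreated groups (n = 5 each), and a bar with whiskers for the group mean ± SD. Prc1 reads between 9.19 and 11.15 in the pretreated group and between 7.13 and 8.37 with doxorubicin alone, while Vegfb is lower in the pretreated group and Cdkn1a overlaps.

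Mural cells, the pericytes and smooth muscle cells around vessels, contributed 7 genes that rose of 15 tested, with none lower (median 0.29). Most of the members that rose mark pericytes. Higd1b, a pericyte marker of mouse heart and lung, read 8.02, 8.31, 7.97, 8.04 and 8.47 against 8.98, 9.07, 9.09, 8.98 and 8.92 (0.85 ± 0.09, adjusted p = 7.31e-06). Pdgfrb, the receptor for the Pdgfb ligand, rose by 0.64 ± 0.08, the regulator of G protein signalling Rgs5 by 0.76 ± 0.16 and the potassium channel subunit Kcnj8 by 0.50 ± 0.07. Kcnj8 also differed between doxorubicin and PBS (-0.35, adjusted p = 0.0419), a comparison that shares the doxorubicin arrays. Notch3, the mural Notch receptor, rose by 0.68 ± 0.13, Vtn by 0.63 ± 0.11 and Cspg4 by 0.29 ± 0.09, the last losing its call in 10 of 21 settings. The brightest members of the list, Acta2 (0.24 ± 0.15, adjusted p = 0.414) and Des (-0.17 ± 0.08, adjusted p = 0.203), did not pass.

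The basement membrane is the sheet of type IV collagen, laminin, nidogen and perlecan on which endothelial cells and pericytes sit. Of 15 of its genes 10 rose and none fell, with a median of 0.81, and leaving out any single array of the 10 left that count at 10. Col18a1, whose product carries the endostatin fragment, read 8.88, 9.16, 8.83, 9.06 and 9.15 against 10.53, 10.90, 10.75, 10.78 and 10.57 (1.69 ± 0.11, a 3.23-fold rise, adjusted p = 4.88e-08). Col4a1 and Col4a2 encode the chains of the same collagen IV molecule and are transcribed in opposite directions from starts 21 bases apart on chromosome 8 (GRCm38.p6, RefSeq). Col4a1 read 12.39, 13.03, 12.12, 12.38 and 12.49 against 13.74, 13.77, 13.76, 13.57 and 13.59, and Col4a2 read 11.97, 12.69, 11.96, 12.01 and 12.06 against 13.41, 13.30, 13.42, 13.27 and 13.10. Doxorubicin array 2 was the highest of its group for both genes, yet neither overlapped between groups, and they rose by 1.20 ± 0.12 and 1.16 ± 0.11. Nid2, a nidogen that links laminin to collagen IV, rose by 1.30 ± 0.11, Hspg2 (perlecan) by 0.86 ± 0.08, and Sparc, the collagen chaperone and counter-adhesive protein, by 1.49 ± 0.17.

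Genes of the interstitial matrix also rose. Of 19 fibrillar collagen and fibrosis genes 11 rose and none fell (median 0.44), but only 7 passed without doxorubicin array 1, doxorubicin array 3, pretreated array 1 or pretreated array 3. Fibronectin (Fn1) rose by 1.05 ± 0.10 on its brightest probe, with 0.17 on the other. Col6a1 and Col6a2, the chains of the microfibrillar collagen VI, rose by 1.01 ± 0.15 and 1.03 ± 0.18, both again on 1 probe. Col1a1 read 9.46, 10.02, 9.39, 9.39 and 9.43 against 10.76, 10.28, 10.83, 10.12 and 10.00 (0.86 ± 0.16, adjusted p = 0.00144), with pretreated array 5 just under doxorubicin array 2. Col3a1, the other main fibrillar collagen of heart, averaged 8.11 and 8.89 and did not pass (0.78 ± 0.26, adjusted p = 0.0734), but it passed in 5 of 21 alternative settings, with 0.91 (adjusted p = 0.000964) without the 4 arrays that stand apart on the second component. The small proteoglycan Bgn rose by 0.63 ± 0.10 and Col5a1, which starts collagen fibrils, by 0.76 ± 0.12.

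Among 13 matrix proteases and their inhibitors 5 rose and 1 fell (median 0.42). Mmp14, the membrane-bound collagenase of sprouting endothelium, rose by 0.92 ± 0.11 on its brightest probe and differed by -0.04 on the other. Adamts9, a protease secreted by microvascular endothelium, read 9.68 to 9.86 on the doxorubicin arrays and 10.36 to 10.87 on the pretreated arrays (0.92 ± 0.12). Plat, the tissue plasminogen activator, rose by 0.84 ± 0.11, again on 1 of 2 probes, Adam15 by 0.54 ± 0.07 and Adamts1 by 0.47 ± 0.10. Stromelysin 1 (Mmp3) was the member that fell (-0.30 ± 0.09, adjusted p = 0.0454), a call lost in 12 of 21 settings.

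Signalling by bone morphogenetic proteins (BMPs) and transforming growth factor β showed 8 of 15 genes higher and none lower (median 0.20). The direct BMP targets Id1 and Id3 rose by 0.71 ± 0.11 and 0.35 ± 0.08. Ltbp4, which stores latent growth factor in the matrix, rose by 0.83 ± 0.09, and the receptor Tgfbr2, which varied by an SD of 0.05 in both groups, by 0.40 ± 0.08. Bmpr2, the type II BMP receptor, averaged 11.10 and 11.06 (adjusted p = 0.825). Of 14 growth factor genes of the insulin-like and neuregulin families, 3 rose (21.4%, against 8.43% of all genes) and none fell (median -0.01). Those were Igf2 (0.57 ± 0.12), the binding protein Igfbp7 (0.71 ± 0.11) and Igf1 (0.37 ± 0.11), the last losing its call in 8 of 21 settings. Nrg1, the neuregulin that heart endothelium sends to muscle, was at the background (7.02 and 6.93), and its receptor Erbb2 averaged 7.62 and 7.55.

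Genes of cell division rose by up to 6.03-fold. In mitosis, kinesins and midzone proteins build and split the spindle, and the complex activated by Cdc20 releases the sister chromatids. Of 37 mitosis genes on the array 27 were tested, and 8 of these, all among those called, passed the filter only through the pretreated arrays. Of the other 19, 14 rose (73.7%, against 8.59% of all genes admitted the same way) and none fell. With no filter on dim probes, 22 of all 37 rose (4.93% of all genes did) and none fell, 34 differences were positive, and the median was 0.53. Prc1, which bundles the microtubules of the spindle midzone, rose most of all genes tested: it read 7.34, 8.37, 7.13, 7.32 and 7.48 against 9.19, 10.81, 11.15, 10.07 and 9.38 (2.59 ± 0.31, a 6.03-fold rise, adjusted p = 2.15e-05). Cdc20 read 7.25, 7.38, 7.12, 7.20 and 7.07 against 7.99, 9.11, 9.34, 8.93 and 8.33 (1.54 ± 0.18, adjusted p = 1.9e-05) on its brightest probe, with 0.10 on a weaker one. Cdk1, the kinase that drives entry into mitosis, read 6.88, 7.12, 6.84, 6.91 and 6.81 against 7.37, 8.13, 9.04, 7.76 and 7.45 (1.04 ± 0.21, adjusted p = 0.00313). Only 1 doxorubicin array was above background for Cdk1, and the same was so for the spindle genes Kif2c and Spag5, while all 5 pretreated arrays were, so that Cdk1 and Kif2c entered the test only through the pretreated arrays. Kif22, a chromosome-moving kinesin, rose by 1.44 ± 0.21, and Anln, which scaffolds the cleavage furrow, by 1.42 ± 0.21. Top2a, the topoisomerase of dividing cells and a target of doxorubicin, rose by 1.03 ± 0.15.

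The size of the rise differed between pretreated hearts. Relative to the PBS mean, the 27 tested mitosis genes averaged 0.34, 0.98, 1.40, 0.72 and 0.45 on pretreated arrays 1 to 5, and -0.13 to 0.13 on the doxorubicin arrays. Pretreated array 3, the one with Cdkn1a at the PBS level, was the highest, but all 5 lay above every doxorubicin array. Of the 27 genes 8 passed the filter only through the pretreated arrays, so this separation is a description. Without doxorubicin array 2 and pretreated array 3 the differences remained positive for each gene named here.

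The promoters of Prc1, Cdc20 and Cdk1 are shown because genes of mitosis share a pair of short elements near their starts, the cell cycle genes homology region (CHR, TTTGAA on either strand) and the CCAAT box (CCAAT, or ATTGG on the other strand). Each sequence runs from 150 bases before the RefSeq start to the start itself (GRCm38.p6, 5′ to 3′ on the gene's strand), with both elements in capitals.
Prc1, chr7:80294301-80294451, plus strand: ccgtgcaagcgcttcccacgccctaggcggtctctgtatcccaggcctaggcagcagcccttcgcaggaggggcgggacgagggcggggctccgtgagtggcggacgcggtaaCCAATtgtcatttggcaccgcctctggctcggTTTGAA
Cdc20, chr4:118437343-118437493, minus strand: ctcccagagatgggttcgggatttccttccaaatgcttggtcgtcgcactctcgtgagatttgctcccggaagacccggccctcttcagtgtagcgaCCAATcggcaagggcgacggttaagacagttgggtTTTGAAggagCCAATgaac
Cdk1, chr10:69352912-69353062, minus strand: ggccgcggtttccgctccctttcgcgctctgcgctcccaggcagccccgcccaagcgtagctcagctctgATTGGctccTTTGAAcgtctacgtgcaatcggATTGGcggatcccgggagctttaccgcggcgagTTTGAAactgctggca

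In Prc1 a CCAAT box at -37 to -33 was followed by a CHR that ended on the start. Cdc20 held its CHR at -18 to -13, between CCAAT boxes at -53 to -49 and -8 to -4. Cdk1 held the pair in 2 copies, with CHRs at -71 to -66 and -15 to -10. Over windows of 250 bases before to 50 after the start, 16 of the 18 mitosis genes that rose and had a window held a CHR (88.9%), 13 a CCAAT box (72.2%) and 13 both (72.2%). Among all 27025 genes with a window the shares were 18.1%, 37.9% and 7.1%. Of the 33 genes of the whole mitosis list with a window, whatever their call, 25 held a CHR (75.8%) and 22 both (66.7%). Of the 4 mitosis genes with a window that were tested but did not pass, 3 held a CHR. The 18 include genes, Cdk1 and Kif2c among them, that passed the filter only through the pretreated arrays. A match describes these letters and does not show that a factor binds there, and the genes differ from the rest in what they do, not only in this comparison.

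**Figure D4:**
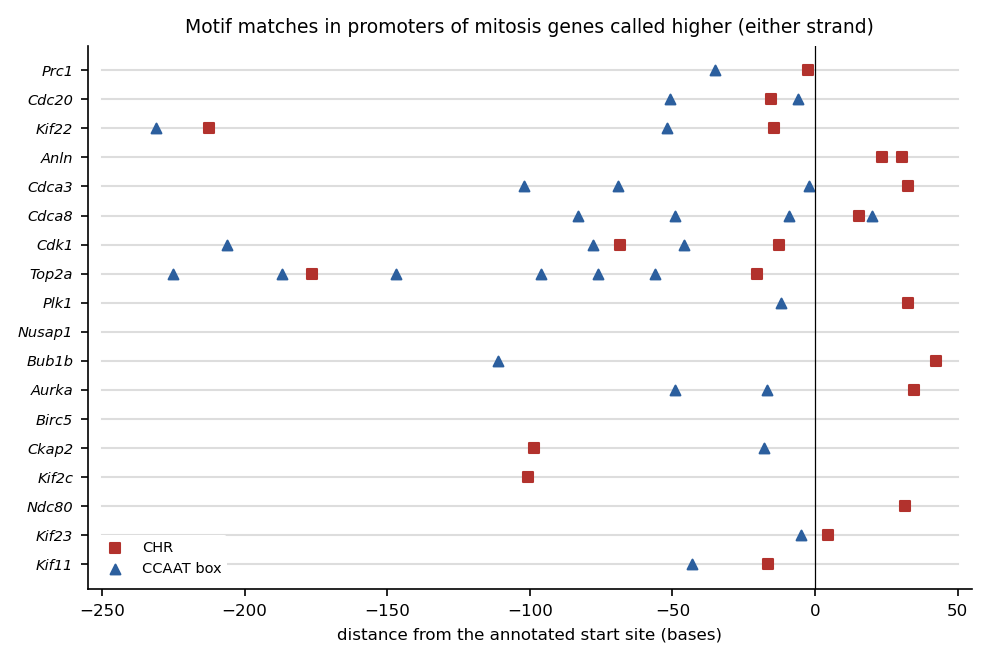
Each row is 1 mitosis gene that rose and has a promoter window, with the distance from the start site in bases on the x axis (negative is upstream); symbols mark matches of the CHR and of the CCAAT box on either strand. Of the 18 rows 16 hold a CHR, 13 of these a CCAAT box as well, and 2 hold no match of either. The rows include Cdk1, Kif2c and other genes that passed the filter only through the pretreated arrays.

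Of 25 tested genes of the step before, G1/S entry and DNA replication, 8 rose and none fell (median 0.29). Of those that rose, 7 had a promoter window and none of these held a CHR. In the whole list, whatever the call, 25 genes had a window and 3 of them held a CHR. Among all genes with a window the share was 18.1%, and 7 genes are too few to tell an absence from that share. Cyclin D1 (Ccnd1), which starts G1 progression, read 10.50, 11.11, 10.43, 10.79 and 10.75 against 11.45, 11.91, 12.48, 11.84 and 11.57 (1.13 ± 0.18, adjusted p = 0.000291). The list averaged 1.06 above PBS on pretreated array 3 against 0.15 to 0.30 on the other pretreated arrays. The replication helicase subunit Mcm5 read 7.92, 8.24, 9.97, 8.16 and 7.99 on the pretreated arrays (0.95 ± 0.27, adjusted p = 0.0292), and Uhrf1, which copies DNA methylation, 7.88, 8.35, 9.96, 8.20 and 7.66 (1.03 ± 0.29, adjusted p = 0.027). Mcm6 (0.71 ± 0.19) and the thymidylate synthase Tyms (0.53 ± 0.14) had the same array highest, at 9.30 and 8.41. Without pretreated array 3 the differences were smaller and still passed, at 0.58 for Mcm5, 0.65 for Uhrf1, 0.46 for Mcm6 and 0.34 for Tyms (adjusted p from 0.00161 to 0.00751). The count of 8 fell to 1 without doxorubicin array 3 or with the 10 arrays fitted alone, and to 2 without doxorubicin array 4. Of 12 replication histone genes 2 rose (16.7%, against 8.43% of all genes), H2ac7 (1.79 ± 0.42) and H2ac24 (1.78 ± 0.41). A probe may not separate their near-identical sequences. Pretreated array 3 read 12.89 and 12.92 against 9.73 to 11.10 on the others. Without that array both still passed, at 1.25 and 1.27.

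**Figure D5:**
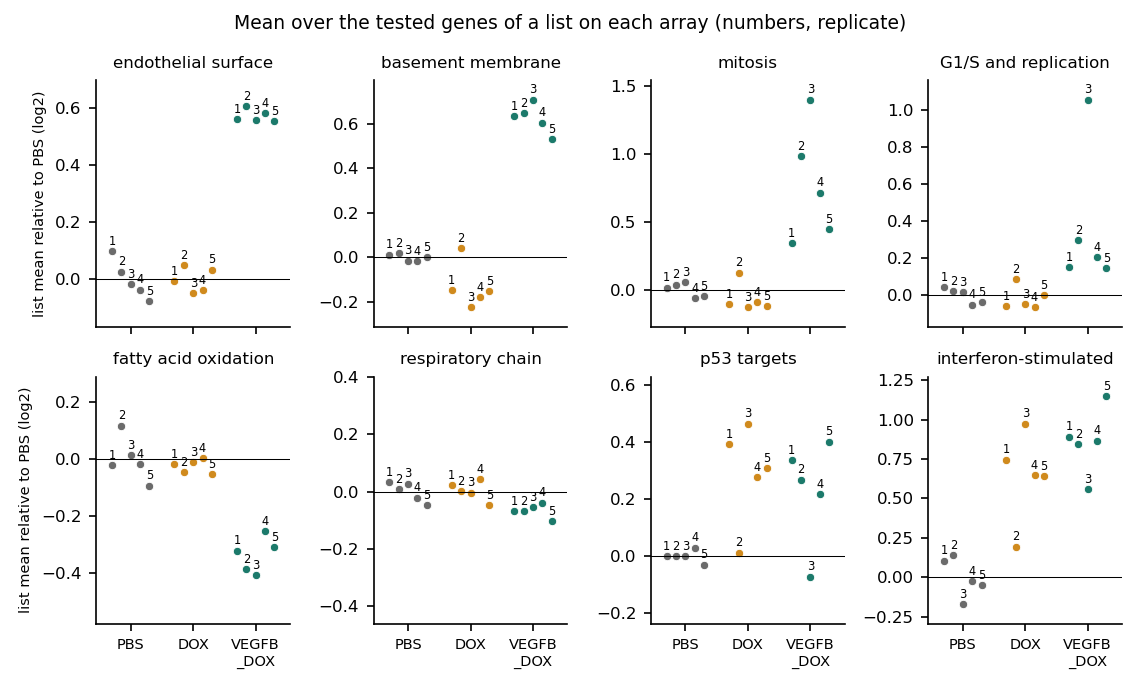
Each panel is a gene list and each point 1 array, with the mean log2 intensity of the list's tested genes relative to the PBS mean on the y axis and the 3 groups (n = 5 each) on the x axis. The endothelial surface list is tight in the pretreated group (0.55 to 0.61), the mitosis list is spread (0.34 to 1.40), and the p53 target list overlaps between doxorubicin alone and pretreatment. Of the 27 mitosis genes 8 passed the filter only through the pretreated arrays.

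Of 23 p53 targets 1 rose (4.35%, against 8.43% of all genes), 3 fell (13%, against 3.95%) and 19 did not pass, with a median of -0.02 that equals that of all genes. The list lay 0.01 above PBS on doxorubicin array 2 and -0.07 from it on pretreated array 3, against 0.22 to 0.46 on the other 8 arrays, so the groups overlapped. Cdkn1a read 10.99, 9.87, 10.99, 10.67 and 10.48 against 10.89, 10.27, 8.60, 10.05 and 10.67 and did not pass (-0.50 ± 0.33, adjusted p = 0.41). Mdm2, the ubiquitin ligase that p53 induces against itself, averaged 10.89 and 10.81 (adjusted p = 0.841). The kinase Plk2 rose by 0.52 ± 0.09, and Gadd45a (-0.35 ± 0.10), Ddb2 (-0.24 ± 0.07) and Rrm2b (-0.39 ± 0.11) fell. None of the falls passed without doxorubicin array 1, doxorubicin array 3 or pretreated array 4. Of 15 DNA repair genes, H2ax, the histone variant phosphorylated at breaks, was the 1 that rose (6.67%; 0.39 ± 0.12, adjusted p = 0.0433), a call lost in 10 of 21 settings. Pretreated array 3 was again the highest at 9.02, and without it the difference was 0.25 (adjusted p = 0.066).

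In a list of doxorubicin's targets and handling that does not hold Top2a, given above with mitosis, 1 of 13 genes rose and 1 fell. That is 7.69% each, against 8.43% and 3.95% of all genes. Nos3 rose, and Cbr1, a carbonyl reductase that converts doxorubicin to doxorubicinol, fell by 0.32 ± 0.07 without overlap (adjusted p = 0.0102). Top2b, the topoisomerase of heart muscle cells, was close to the background (6.97 and 7.03, adjusted p = 0.678). Of 15 apoptosis genes 2 rose (13.3%, against 8.43% of all genes) and 1 fell (6.67%, against 3.95%), with a median of 0.04. Caspase 8 (Casp8), the initiator of the death receptor route, read 8.09, 8.41, 8.10, 8.19 and 8.15 against 8.90, 9.02, 9.07, 8.87 and 9.15 (0.81 ± 0.08, adjusted p = 1.8e-06), with no overlap. Apaf1, the core of the apoptosome, rose by 0.52 ± 0.08. Diablo, which frees caspases from their inhibitors once out of the mitochondria, fell by 0.29 ± 0.08 and lost its call in 9 of 21 settings. Bcl2 (0.25 ± 0.14) and Bcl2l1 (0.01 ± 0.08), which hold mitochondria closed, did not pass.

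Interferon-stimulated genes stood above PBS in the hearts given doxorubicin alone (median difference 0.65 over 19 genes, 6 passing). After pretreatment, in a comparison that shares those doxorubicin arrays, 4 of the 19 rose (21.1%, against 8.43% of all genes), none fell, and the median was 0.16. Of the 18 that passed the filter without the pretreated arrays 3 rose (16.7%, against 8.59% of all genes admitted that way). Rsad2, an antiviral radical enzyme, read 10.41, 9.86, 10.64, 10.65 and 10.70 against 11.17, 11.11, 10.70, 11.30 and 11.40 (0.68 ± 0.16, adjusted p = 0.0108), the groups touching at 10.70. The membrane antiviral Ifitm3 rose by 0.38 ± 0.10 and the ubiquitin ligase Trim25 by 0.35 ± 0.09. The chemokine Cxcl10 passed the filter only through the pretreated arrays, and its difference of 0.27 ± 0.07 was 0.21 (adjusted p = 0.0801) without doxorubicin array 2 and pretreated array 3. The regulator Irf7 read 8.96, 7.88, 9.30, 8.66 and 8.36 against 9.34, 9.28, 8.42, 9.22 and 9.69 and did not pass (0.56 ± 0.22, adjusted p = 0.134; 0.0302 without the same pair), and Isg15 averaged 8.34 and 8.46. The list was lowest in each group on the arrays that stand apart in Cdkn1a (0.19 above PBS on doxorubicin array 2 and 0.56 on pretreated array 3). Without array 5 of both groups and PBS arrays 4 and 5, the count was 2 of 19.

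Of 12 genes of MHC class I and the immunoproteasome, the heavy chain H2-D1 and its partner B2m rose (16.7%, against 8.43% of all genes). H2-D1 read 11.55, 11.43, 11.55, 11.47 and 11.51 against 12.17, 12.38, 11.97, 11.97 and 12.16 (0.63 ± 0.09, adjusted p = 0.00019). B2m rose by 0.58 ± 0.12. The probe of H2-K1, a close relative of H2-D1, averaged 9.02 and 9.51 and did not pass (adjusted p = 0.2), and the 2 class I genes can share signal. None of 7 MHC class II genes and none of 9 interferon-induced GTPases passed.

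In the lists of heart muscle fuel use, the members that passed were lower in the pretreated hearts, and most members did not pass. Heart muscle draws most of its energy from fatty acids, which enter mitochondria through the carnitine palmitoyltransferases and are cut by the β-oxidation spiral. Of 22 fatty acid oxidation genes 9 fell and none rose, all 22 differences were negative, and the median was -0.29. The list lay -0.05 to 0.00 from PBS on the doxorubicin arrays and -0.41 to -0.25 on the pretreated arrays, without overlap. Acot1, a thioesterase induced by the fatty acid receptor PPARα, read 10.72, 10.45, 10.42, 10.64 and 10.58 against 9.62, 9.80, 9.06, 10.08 and 10.35 (-0.78 ± 0.19, adjusted p = 0.0111). Mlycd, which removes the malonyl-CoA that blocks carnitine palmitoyltransferase 1, fell by 0.55 ± 0.11. Cpt2, the inner membrane transferase, read 13.12, 13.05, 13.16, 13.09 and 13.10 against 12.75, 12.76, 12.75, 12.94 and 12.79, a fall of 0.31 ± 0.06 with no overlap (adjusted p = 0.00313). Etfb, which passes the electrons on, fell by 0.27 ± 0.06 and the very long chain dehydrogenase Acadvl by 0.23 ± 0.05. Cpt1b, the muscle carnitine palmitoyltransferase 1, averaged 12.56 and 12.32 and did not pass on its brightest probe (-0.24 ± 0.11, adjusted p = 0.197), while its second probe did (-0.37, adjusted p = 0.0143).

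Regulators and targets of the PPAR and estrogen-related receptor (ERR) programme, which keeps these genes on, fell in 7 of 18 cases and rose in none (median -0.22). Pdk4, the kinase that shuts pyruvate dehydrogenase so that fat is burned, read 12.81, 13.40, 12.76, 12.85 and 12.48 against 12.12, 11.87, 11.38, 11.99 and 12.09 (-0.97 ± 0.25, adjusted p = 0.0162). The groups did not overlap, but PBS arrays ran from 12.14 to 13.72. Without doxorubicin array 2 and pretreated array 3 the difference was -0.71 (adjusted p = 0.0992). The call of Pdk4 ended in 2 of 21 alternative settings, the other being a robust form of the variance model (adjusted p = 0.0504). Ephx2, an epoxide hydrolase of peroxisomes, fell by 0.55 ± 0.07 with the pretreated arrays within 10.35 to 10.48 (adjusted p = 7.11e-05). Retsat, a retinol saturase, fell by 0.58 ± 0.16. Among the receptors Esrrb fell by 0.35 ± 0.09 and the retinoid partner Rxrg by 0.33 ± 0.08. Ppara was at the background (6.93 and 6.87), and the coactivator Ppargc1a spread over more than 1 unit in both groups (10.46 and 10.23, adjusted p = 0.684). The count of 7 fell to 3 without doxorubicin array 1 or pretreated array 2, and to 4 without doxorubicin array 2 and pretreated array 3.

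Among genes that feed carbon to the citric acid cycle, counts were small and moved with the arrays left out. Of 11 genes of the pyruvate dehydrogenase complex and its regulators 3 fell: Pdk4, its opposing phosphatase Pdp2 (-0.44 ± 0.12) and the E2 core subunit Dlat (-0.29 ± 0.09). The count was 1 without doxorubicin array 4, doxorubicin array 5, pretreated array 1 or pretreated array 2. The E1 subunit Pdha1 averaged 13.77 and 13.72 (adjusted p = 0.686). Of 17 genes of glucose use 3 fell: Fbp2, the muscle fructose bisphosphatase (-0.61 ± 0.10), Pygm, the muscle glycogen phosphorylase (-0.39 ± 0.12), and Ldhb, the heart lactate dehydrogenase chain (-0.29 ± 0.08). That count was 1 without doxorubicin array 1 or without pretreated array 2, 3 or 5. The glucose transporters Slc2a4 (9.77 and 9.81) and Slc2a1 (9.13 and 9.05) did not pass. Of 15 citric acid cycle genes 2 fell (13.3%, against 3.95% of all genes), Suclg2 (-0.30 ± 0.07) and Idh3g (-0.20 ± 0.06). Citrate synthase (Cs) averaged 13.51 and 13.37 (adjusted p = 0.274). Of 22 respiratory chain genes 1 fell (4.55%, near the 3.95% of all genes), Ndufs3 (-0.23 ± 0.07), with a list median of -0.05.

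Breakdown of branched-chain amino acids, another fuel of heart mitochondria, had 3 of 16 genes lower and none higher (median -0.24). They were the E1 and E2 subunits of the branched-chain dehydrogenase, Bckdha (-0.42 ± 0.10) and Dbt (-0.38 ± 0.12), and the kinase that inhibits it. That kinase, Bckdk, read 9.78, 9.70, 9.72, 9.88 and 9.87 against 9.42, 9.50, 9.44, 9.30 and 9.38 (-0.38 ± 0.07, adjusted p = 0.000997), without overlap. The count was 6 without doxorubicin array 2. Across these fuel lists the calls of Dbt, Dlat, Pdp2, Pygm, Ldhb, Idh3g and Ndufs3 ended in 8 to 12 of 21 alternative settings each.

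Outside the lists, the largest falls included further mitochondrial genes. Slc25a42, the mitochondrial coenzyme A carrier, fell by 0.48 ± 0.10 on 1 of its 2 probes, and Slc25a34, another member of that carrier family, by 0.48 ± 0.09. Akap1, which anchors protein kinase A to the outer mitochondrial membrane, fell by 0.49 ± 0.10. Pex11a, which divides peroxisomes, read 9.28, 9.53, 9.42, 9.59 and 9.44 against 8.99, 8.85, 8.79, 8.85 and 9.16, a fall of 0.52 ± 0.10. Among genes of other kinds, the neurotrophin Bdnf fell by 0.52 ± 0.11 on its brightest probe and the chemokine Cxcl14 by 0.53 ± 0.13 (-0.47, adjusted p = 0.0609, without doxorubicin array 2 and pretreated array 3). The largest rises outside the lists included the intermediate filament Vim, which endothelial and other mesenchymal cells share: it read 9.82, 10.11, 9.71, 9.80 and 9.90 against 11.44, 11.55, 11.74, 11.10 and 11.18 (1.53 ± 0.11, adjusted p = 1.83e-07). Mest, an imprinted gene of growing mesoderm, rose by 1.39 ± 0.16. Pcdh17, a protocadherin, rose by 1.48 ± 0.12 and the lysosomal carboxypeptidase Prcp by 1.47 ± 0.11.

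Of 16 antioxidant genes under the factor NRF2, 2 fell (12.5%, against 3.95% of all genes) and none rose (median -0.10). That count was 4 without doxorubicin array 2 and pretreated array 3. Gpx3, a secreted glutathione peroxidase, read 11.64, 11.35, 11.52, 11.69 and 11.58 against 11.13, 11.22, 10.69, 10.99 and 11.40 (-0.47 ± 0.11, adjusted p = 0.00846). It was raised by doxorubicin over PBS (0.57, adjusted p = 0.0309), on shared arrays, and the pretreated hearts averaged 0.10 above PBS. Gstm1, a glutathione transferase, fell by 0.44 ± 0.11, and Nqo1, the usual NRF2 target, averaged 9.24 and 8.94 (adjusted p = 0.172). Of 13 atrophy and autophagy genes 2 fell (15.4%, against 3.95% of all genes) and none rose. They were the muscle ubiquitin ligases Fbxo32 (-0.51 ± 0.13) and Trim63 (-0.34 ± 0.10), the second losing its call in 11 of 21 settings. With no filter on dim probes 1 of the 13 fell. Of 18 heat shock and unfolded protein genes 1 fell (5.56%, near the 3.95% of all genes), Hsph1 (-0.58 ± 0.15). Its difference was -0.44 (adjusted p = 0.0954) without doxorubicin array 2 and pretreated array 3. Sgk1, a kinase that glucocorticoids induce, was the 1 of 12 such genes that rose (8.33%, near the share of all genes; 0.75 ± 0.12), while Fkbp5 averaged 8.01 and 8.08. Of 12 clock genes 1 rose (8.33%, near the 8.43% of all genes) and none fell past the threshold. It was Dbp (1.62 ± 0.37, adjusted p = 0.00871), whose PBS arrays spread from 10.78 to 13.10. The 12 differences ran from -0.77 to 1.62, with 9 of them positive.

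Contractile and calcium-handling genes mostly did not pass. Of 16 sarcomere genes Tpm1, a tropomyosin, was the 1 that passed (6.25% rose; 0.37 ± 0.09, adjusted p = 0.0168), and none of 18 calcium and excitation genes passed. Myh6 averaged 14.40 and 14.50 (0.10 ± 0.12, adjusted p = 0.706), the sarcoplasmic calcium pump Atp2a2 14.37 and 14.43 (0.05 ± 0.11, adjusted p = 0.855) and the calcium release channel Ryr2 13.15 and 13.13 (-0.02 ± 0.12, adjusted p = 0.945). None of 9 genes of cardiac stress passed. Nppa, the atrial natriuretic peptide, read 13.38, 14.24, 13.08, 13.27 and 13.30 against 12.89, 13.33, 12.54, 13.01 and 12.96 (-0.51 ± 0.17, adjusted p = 0.0724), and passed in 3 of 21 alternative settings. Nppb, its ventricular relative, was the most variable gene shown, at 11.28, 13.40, 9.72, 12.28 and 12.81 against 11.92, 13.12, 12.99, 13.14 and 12.36 (adjusted p = 0.357).

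Markers of other cell types were examined because whole myocardium holds them. None of 14 macrophage genes passed (median 0.19), and the list lay 0.07 to 0.21 above PBS on the doxorubicin arrays and 0.13 to 0.64 on the pretreated arrays. Adgre1, an adhesion receptor of macrophages, averaged 8.26 and 8.67 (adjusted p = 0.0866) and Csf1r 8.30 and 8.51 (adjusted p = 0.332). None of 8 neutrophil genes passed. The neutrophil alarmin S100a9 averaged 8.30 and 7.79 (adjusted p = 0.0981), against 6.96 in PBS. Of 11 markers of T and natural killer cells 9 were named on the array and 3 were bright enough to test. Of these, Cd3g and Cd3d entered the test only through the pretreated arrays. Of 6 B cell markers 3 were named on the array and 1 was tested. None of the tested markers of these cells passed. None of 5 red cell genes passed, but the list ranged from -0.90 to 0.26 around PBS on the doxorubicin arrays and from -1.09 to 0.33 on the pretreated arrays, with doxorubicin array 2 and pretreated array 3 the highest of each group. Its part in the other results was not tested.

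Of 12 fibroblast genes 3 rose and none fell (median 0.05). Thy1, a surface protein that pericytes and some endothelial cells also carry, read 8.61, 9.44, 8.46, 8.82 and 8.91 against 10.19, 10.27, 10.42, 10.15 and 9.86 (1.33 ± 0.15, adjusted p = 8.14e-06). The microfibril gene Mfap5 rose by 0.68 ± 0.15, and Col1a1 is described above. The defining fibroblast genes Pdgfra (9.83 and 9.69), Tcf21 (7.86 and 8.06) and Dcn (13.58 and 13.67) did not pass. Of 8 platelet and mast cell genes the receptor Kit, which mast cells and some endothelial cells carry, rose by 1.24 ± 0.18. No other passed (12.5% rose, against 8.43% of all genes). Of 4 atrial genes Dkk3 alone passed, rising by 0.36 ± 0.09 (25% rose, against 8.43% of all genes), and the list median was 0.02. Of 5 skeletal muscle genes Tnni2 alone passed, falling by 0.28 ± 0.08 (20% fell, against 3.95% of all genes), with a list median of -0.01. Of 13 chemokine and cytokine genes Cxcl16 (0.57 ± 0.10) and Cxcl12 rose (15.4%, against 8.43% of all genes). Vegfa, Inmt, Cxcl12, Cxcl16, Ldhb, Mmp3, Meox2, Slit3, Itga1, Dkk3, Tnni2 and Top2a were chosen for naming after their values were seen.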

How the data were processed

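Total RNA from myocardium was hybridised as biotin-labelled cRNA to Illumina BeadChips, 1 array a sample, per the labels' protocols. The deposited table holds log2 intensities that the authors had already normalized; once sorted, the arrays matched each other to 0.01, as quantile normalization leaves them. The log base and the missing background subtraction were read from the values and are not stated. A second table of 15 raw signal columns matched no sample label and was not used. Of 45281 probes, 34885 had 1 symbol in the platform annotation, 18 several and 10378 none. limma 3.58.1 (R 4.3.3) fitted 1 mean per group on all 15 arrays (12 residual degrees of freedom) with a variance trend, and p-values were adjusted over 24861 tested probes at a threshold of 0.05. The fit was tested on simulated data. Groups came from the sample titles. The 57 gene lists (727 genes tested) and the members were chosen with earlier results of these data known, so no list was given a test of its own. Genes were named by a rule that began with Vegfb, Flt1, Nrp1 and Kdr and added the 25 largest non-overlapping rises and falls. For each list it added the first 3 genes, up to 5 members that passed with the smallest p and, for cell types, the 2 brightest. Alternatives changed the filter, the arrays fitted, the variance model, the scaling and the replicate block. With arrays, precision is limited by the 5 per group. Promoters are RefSeq windows on GRCm38.p6. Figures used matplotlib 3.10.9.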

Additional observations from a re-analysis of the deposited data

Results flagged for a closer look

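Of 408 groups of 5 arrays behind the genes named above, 31 held an array whose gap to the nearest other exceeded 0.71 of the group's range; chance flags about 1 in 20 groups. No explanation was tested for any of them.

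On doxorubicin array 2 the highest value of its group was read for Lxn (8.88), Fscn1 (9.59), Rbp7 (9.93), Nostrin (9.43), Col4a2 (12.69), Col1a1 (10.02), Adamts9 (9.86), Mcm5 (7.87), Uhrf1 (7.74), Prc1 (8.37), Spag5 (7.28) and Nppa (14.24). On the same array Rrm2b, a p53 target, was the lowest of its group (9.74). Pretreated array 3 was the highest of its group for Igf2 (11.34), Mcm5 (9.97), Mcm6 (9.30) and Tyms (8.41) and the lowest for Gja4 (9.15). These are the arrays on which Cdkn1a stood closest to the PBS level.

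Pretreated array 5 was the lowest of its group for Nrp2 (7.05), Cavin1 (10.54) and Col3a1 (7.81) and the highest for Kdr (7.09). Pretreated array 1 was the highest for Pdpn (9.15), S100a9 (8.57) and Adgre1 (9.15). Pretreated array 4 was the highest for Cpt1b (12.61) and Cpt2 (12.94) and the lowest for Bcl2l1 (6.98). Among the doxorubicin arrays, array 4 was the lowest for Hey1 (8.99), array 5 for H2-K1 (8.52) and array 1 for Pdp2 (10.20).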

How the results depend on the processing

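Over 21 alternative settings every probe called both in the original setting and in an alternative had the same direction, and no call of a named gene reversed; 12 named genes, none past the threshold, changed sign in at least 1 setting. With no filter on dim probes 505 probes were lower. With array weights 3601 probes were called, 2051 higher and 1550 lower. With cyclic loess the split was 1770 higher and 531 lower. Subtracting a linear offset before the log gave 163 probes at least 2-fold higher and 4 lower. Leaving out 1 array at a time gave 1627 (without doxorubicin array 4) to 2597 (without doxorubicin array 2) calls, 1216 to 1609 higher, and 411 (without doxorubicin array 4) to 988 lower. Lower probes also dropped without pretreated array 1, 2 or 3 (517, 429 and 479). Probes at least 2-fold higher ranged from 76 to 118, and lower from 0 (without pretreated array 3; 1 without doxorubicin array 3) to 4 (without doxorubicin array 2). Vegfb ranged from -0.25 to -0.19, and its adjusted p was 0.0561 without doxorubicin array 5 and 0.0629 without pretreated array 2. Without array 5 of both drug groups and PBS arrays 4 and 5 its difference was -0.20 (adjusted p = 0.0539).

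With the replicate number as a block 2595 probes were called, 1670 higher and 925 lower, of which 2254 were also called without it. Same-numbered samples correlated at 0.33, 0.10, -0.25, 0.04 and 0.63 in their deviations from the group means. As these are not all above 0.1, the numbers were not taken as pairs, although array 5 of both groups also lay together on the second component. The block added calls for Col3a1 (adjusted p = 0.00639), Cavin1 (0.00364), Nppa (0.00962) and Adgre1 (0.016).

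Of the named genes given as not passing, 10 passed in at least 1 setting: Col3a1 and Cavin1 in 5 each, Nppa and Irf7 in 3 each, Flt1, Adgre1 and S100a9 in 2 each, and Bcl2, Cs and Nqo1 in 1 each. Calls ended in at least 1 setting for 38 of the 204 named genes. Beside those with counts in the text, they ended in 10 settings for Gadd45a, 7 each for Ddb2, Rrm2b and Uhrf1, 5 each for Mcm5, Esrrb and Tnni2, 4 for Retsat, 3 each for Cytl1, Tyms, Fbxo32 and Hsph1, 2 each for Mcm6, Ifitm3 and Slit3, and 1 each for Cxcl10, Cxcl14, Rxrg and Trim25. The count of matrix proteases higher was 8 with array weights. The slide as a block was not run, since slides are not given in the sources used here. Probes close to background bound what a difference can show: the median SE of a difference was 0.07.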
